A study of Mus musculus with 2 samples.

Results

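Interleukins are secreted proteins through which immune and tissue cells signal to one another, and each acts on a receptor built from chains that are often shared between several interleukins. The genes described here are those measured by a row that names 1 gene whose symbol starts with Il and a digit. They come to 78 genes on 80 rows, out of 22180 genes on 41345 rows in all. By role, 36 encode ligands, 32 encode signalling receptor chains, 7 encode antagonists, decoy receptors or binding proteins, and 3 are other members of the symbol family. The study profiled alveolar macrophages, the resident phagocytes of the lung airspaces, on Affymetrix arrays to compare cells with and without PIKfyve, a lipid kinase of endosomes and lysosomes. Both groups were adult C57BL6 mice, littermates kept free of specific pathogens, and both carried floxed Pikfyve alleles (f_f). The group labelled wild type had no other allele named, and the group labelled PIKfyve KO also carried lysm_cre, a Cre recombinase expressed from the lysozyme 2 locus in myeloid cells. No treatment was given to either group, and cells were sorted from collagenase-digested lung as negative for DAPI and positive for Siglec-F and CD11c.

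Each genotype had 1 array, and how many animals stand behind an array is not stated in the labels. No difference below was therefore tested, and no value carries a replicate error. Values are log2 signals after RMA, the method that corrects background, brings arrays to a common distribution and combines the probes of each row into a single value. A difference is the log2 value on the array labelled knockout less that on the array labelled wild type, and a fold is 2 raised to the size of the difference. Probes differ in brightness, so levels are compared between arrays for a gene and not between genes. A gene was called above background when it exceeded the 95th percentile of 1432 olfactory, vomeronasal and taste receptor genes, which was 5.37 on the array labelled wild type and 5.31 on the array labelled knockout. Genes entered counts of differences when their mean over the arrays was at least 5.13 (the median row), a filter that kept 12516 genes and 40 of the interleukin genes.

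The row of Pikfyve read 5.68 on the array labelled wild type and 5.95 on the array labelled knockout. It was not lower where the kinase should be lost, and whether its probes lie in the deleted part is not given in the sources, so the arrays are called by their labels throughout. None of the interleukin genes lay among the 100 measured genes nearest to Pikfyve on its chromosome (0 of 78). All 11 alveolar macrophage markers examined, including Siglecf, Itgax, Marco and Pparg, were above background on both arrays, 7 of them higher and 4 lower on the array labelled knockout. At least 1.5-fold apart were 3 of the 11, or 27.3%, against 7.11% of all genes that passed the filter. Siglecf, whose protein was used in the sort, read 9.27 and 8.54, Krt79 read 11.62 and 10.63, and Fabp4 read 11.60 and 12.22.

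Alveolar macrophages are known to express interleukin-18 without stimulation and to make interleukin-1 when stimulated. They are held in a quiet state by signals such as interleukin-10, transforming growth factor beta and the epithelial ligand CD200. Interleukin-15, presented on the cell surface by its own alpha chain, supports NK cells and memory CD8 T cells.

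The ligand gene Il15 and the receptor chain gene Il10rb read at least 1.5-fold higher on the array labelled knockout, and the ligand gene Il1a and the receptor chain gene Il10ra read at least 1.5-fold lower. These 4 of the 40 genes that passed the filter compare with 7.11% of all genes that passed it, so the share was close to the background and is not a result about interleukins as a class. Of all genes, 4.45% were that much higher and 2.66% that much lower, or 557 and 333 genes; with the medians of the arrays made equal these became 735 and 219. None of the 40 was 2-fold apart (0 of 40, against 1.26% of all genes). A further description of scatter is the local spread, a robust standard deviation of differences among genes of like level, which ran from 0.20 to 0.33. By that measure 24 of the 40 differed by less than 1 local spread and 4 by more than 2, namely Il10ra, Il15, Il1a and Il1b, while 8.38% of all genes exceeded 2.

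**Figure D1:**
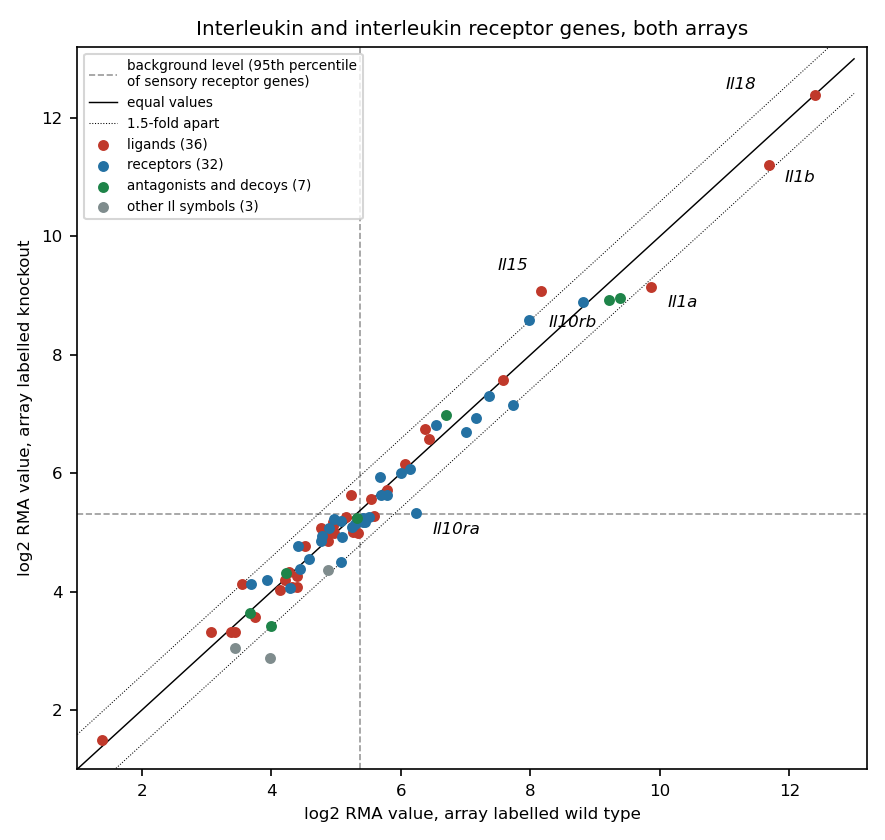
Log2 RMA values of all 78 interleukin genes, the array labelled wild type on the horizontal axis and the array labelled knockout on the vertical axis, with ligands, receptors, antagonists and other symbols in separate colours. Dashed lines are the background levels of 5.37 and 5.31. Of the genes that passed the filter, Il15 and Il10rb lie past the upper dotted 1.5-fold line and Il1a and Il10ra past the lower one. Il1rapl1, below background on both arrays at 3.98 and 2.88, also lies past the lower line.

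Il1a and Il1b, the ligand genes of the IL-1 receptor, were both lower in the array labelled knockout, and the sequences upstream of their starts are shown because this pair of ligand genes for the same receptor differed in the same direction. Il1a met the rule for showing a promoter (at least 1.5-fold apart), and Il1b was added after its values were seen. Il15, Il10ra and Il10rb met the rule too, but no promoter entry was found for them. Each run holds the 250 bases before the start in the RefSeq promoter table (build GRCm38.p6), written 5′ to 3′ on the strand of the gene, which is the minus strand for both. That of Il1a is at chr2:129309973-129310222 and that of Il1b is at chr2:129371140-129371389.
Il1a: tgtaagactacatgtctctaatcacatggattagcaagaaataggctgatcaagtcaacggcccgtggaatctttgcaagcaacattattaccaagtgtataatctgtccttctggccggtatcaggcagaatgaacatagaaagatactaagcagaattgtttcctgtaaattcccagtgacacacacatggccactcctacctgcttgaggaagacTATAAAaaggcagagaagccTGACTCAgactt
Il1b: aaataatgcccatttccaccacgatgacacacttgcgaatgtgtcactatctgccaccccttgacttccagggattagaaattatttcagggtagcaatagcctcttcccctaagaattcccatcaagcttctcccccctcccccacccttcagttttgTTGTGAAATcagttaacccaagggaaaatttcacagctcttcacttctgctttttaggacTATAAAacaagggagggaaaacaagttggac
Capitals mark matches to a search for the TATA box as TATAAA on the strand of the gene and, on both strands, for AP-1 as TGANTCA, C/EBP as TTNNGNAAT and the NF-kB consensus motif; no matches overlap. The TATA box starts 32 bases before the start of Il1a and 31 bases before that of Il1b, and 7.59% of the 32841 promoters of the same length hold it. Il1a has 1 AP-1 match, starting 12 bases before the start, a motif found in 6.75% of promoters. Il1b has 1 C/EBP match, starting 91 bases before the start, a motif found in 10.2% of promoters. Neither window held the NF-kB letters, which 7.25% of promoters hold; no match says only that these letters are not in these windows. Promoter entries were found for 61 of the 78 genes.

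Among the IL-1 family ligands, Il1a, which encodes the cell-associated form of IL-1, read 9.87 on the array labelled wild type and 9.15 on the array labelled knockout. It was 1.64-fold lower in the latter, a difference of -0.71 where the local spread was 0.30, and 165 of the 12516 genes had a larger negative difference. Il1b, the secreted form, read 11.68 and 11.21, a difference of -0.47, or 1.38-fold, where the local spread was 0.20. Il18, which encodes the IL-1 family cytokine that drives interferon gamma production, read 12.39 on both arrays. The lower values of Il1a and Il1b thus stood beside an Il18 that differed by 0.00. The remaining IL-1 family ligands were below background on both arrays. The alarmin gene Il33 read 4.40 and 4.27, and Il1f6, Il1f8 and Il1f9, which encode the IL-36 cytokines, lay between 4.19 and 5.11.

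The natural antagonist of IL-1 was lower as well. Il1rn, which encodes the IL-1 receptor antagonist, read 9.39 and 8.96, a difference of -0.43 that is 1.35-fold and inside the 1.5-fold limit. Relative to Il1rn, Il1b differed by -0.04 and Il1a by -0.28, so the ratio of Il1b to its antagonist was within 1.03-fold of that on the array labelled wild type. Il1r2, which encodes the decoy receptor that binds IL-1 without signalling, read 9.21 and 8.93, a difference of -0.29. All 4 of these genes of the IL-1 system (Il1a, Il1b, Il1rn and Il1r2) were therefore lower in the array labelled knockout, and 1 of them by 1.5-fold. They are a part of the IL-1 family, of which 10 genes of all roles passed the filter, 7 lower and 3 higher. Of those 10, 1 was at least 1.5-fold apart. Among all genes that passed the filter, 49.6% were lower and 7.11% were that far apart.

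The signalling chains of IL-1 were near background. Il1r1, the signalling receptor gene, read 5.24 and 5.09, under the background level on both arrays. Il1rap, which encodes the accessory chain shared by the receptors of IL-1, IL-33 and IL-36, is measured by 3 rows that disagree in level. The brightest row read 5.92 and 5.86, above background, another 3.79 and 3.64, and the last 3.63 on both arrays; their mean, 4.45 and 4.38, is below background. Il1rl2, the IL-36 receptor gene, read 5.69 and 5.64. Il18r1 and Il18rap, which encode the chains of the IL-18 receptor, read 5.08 and 5.19 and then 4.78 and 4.94, not above background on either array. Il18bp, which encodes a soluble protein that neutralises IL-18, read 6.70 and 6.99, a difference of 0.29, while Il18 itself was level. The antagonists of the IL-36 group read near background, Il1f5 at 4.23 and 4.31 and Il1f10 at 5.32 and 5.25.

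Genes that act in the maturation and release of IL-1 and IL-18 had a median difference of 0.05 over the 17 of 20 measured that passed the filter, with 10 higher and 7 lower, beside a median of 0.00 over all genes. Nlrp3, which encodes the sensor of the NLRP3 inflammasome, read 6.82 and 5.95 and was 1.83-fold lower, the 1 gene of these 17 at least 1.5-fold apart. Casp1, the protease that cleaves pro-IL-1 beta and pro-IL-18, read 10.95 and 11.03, and the adaptor gene Pycard read 8.82 and 9.07. Gsdmd, which encodes the pore protein gasdermin D, read 7.96 on both arrays. Capn2, which encodes a subunit of calpain, a protease that cleaves pro-IL-1 alpha, read 8.64 and 8.19, a difference of -0.45. That 1 of 17, or 5.88%, compares with 7.11% of all genes, so the count was near the background and is not a result about this list. The 16 others that passed the filter lay within 1.5-fold, in both directions.

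Immediate early genes, which are induced within minutes by stimulation and also by tissue dissociation, were mostly lower in the same array. Their list also held Tnf, which encodes the inflammatory cytokine TNF, and the heat shock genes Hspa1a, Hspa1b, Hspa8 and Dnajb1. The list had a median difference of -0.59, with 22 of 25 genes lower and 13 at least 1.5-fold lower. Of all genes that passed the filter, 49.6% were lower and 2.66% at least 1.5-fold lower. Tnf itself read 9.73 and 7.94. Monocyte markers had a median of -0.69 over 7 genes that passed the filter, 5 of them lower and 4 at least 1.5-fold lower. Of the 9 monocyte markers measured, 7 were above background on each array, F13a1 and Vcan were not, and the summed linear signal was 11432 and 11710. That sum is mostly Chil3, also an alveolar macrophage gene, and without it the 8 others summed to 2380 and 1833. In bulk samples such as these, fewer cells of a type and less RNA per cell cannot be told apart, and the part of these genes in the lower Il1a and Il1b values was not tested.

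Il15 had the largest difference of any ligand that passed the filter. It read 8.16 on the array labelled wild type and 9.09 on the array labelled knockout, which is 1.89-fold higher, a difference of 0.92 where the local spread was 0.31. Of the 12516 genes, 141 had a larger positive difference. Il15ra, which encodes the alpha chain that carries IL-15 to neighbouring cells, read 6.54 and 6.82, higher by 0.29 or 1.22-fold. Il2rb, the beta chain through which responding lymphocytes signal, read 4.76 and 4.85, under background on both arrays.

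Transcripts of T and NK cells, which respond to IL-15, were also somewhat higher. Of 12 T and NK cell markers that passed the filter, 9 were higher and 3 at least 1.5-fold higher, with a median of 0.23. Beside them, 4.45% of all genes that passed the filter were at least 1.5-fold higher and 2.66% lower. Of the 14 measured, 10 were above background on the array labelled wild type and 11 on the array labelled knockout, and the NK genes Klrb1c and Ncr1 and the T cell gene Cd8a were below it on both. The summed linear signal was 4394 and 4853, most of it from Cd2, and without Cd2 the 13 others summed to 977 and 1361. Neutrophil markers had a median of 0.42 over 12 genes, with 9 higher and 3 lower. At least 1.5-fold apart were 5 higher and 1 lower, Csf3r at 6.32 and 5.68. The list summed to 7124 and 9761, with 12 genes above background on the array labelled wild type and 11 on the array labelled knockout. Airway and alveolar epithelial markers had a median of 0.15 over 14 genes, with 8 higher and 6 lower. Of these 5 were at least 1.5-fold higher and 1 lower, the widest being the airway secretory gene Bpifa1 at 7.32 and 9.78 and the epithelial adhesion gene Epcam at 8.09 and 6.09. Of the 15 measured, 11 were above background on the array labelled wild type and 12 on the array labelled knockout, and the summed linear signal was 9814 and 11771. Dendritic cell markers had a median of 0.02 over 6 genes, with Ccr7, a receptor of migrating dendritic cells, at 7.31 and 7.97. The part of these cells in the Il15 value was not tested.

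The other ligands that share the common gamma chain were near background. Il2, Il4, Il7, Il9 and Il21, growth and differentiation factors of lymphocytes, lay between 3.32 and 4.77 on both arrays. Il13, a type 2 cytokine, read 5.58 and 5.28, above background only on the array labelled wild type; measured from the background level it was at least 1.21-fold lower. The receptor chains that macrophages use to sense IL-4 and IL-13 were well above background and nearly level. Il4ra read 7.36 and 7.31, and Il13ra1 read 8.81 and 8.90. The decoy receptor gene of IL-13, Il13ra2, read 3.67 and 3.63. The lymphocyte receptor genes Il2ra and Il21r, for which the array labelled wild type read 5.44 and 5.42, were above background there only and at least 1.10-fold and 1.08-fold lower. Il7r read 4.96 and 5.22 and Il9r 5.30 and 5.13, neither above background.

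**Figure D2:**
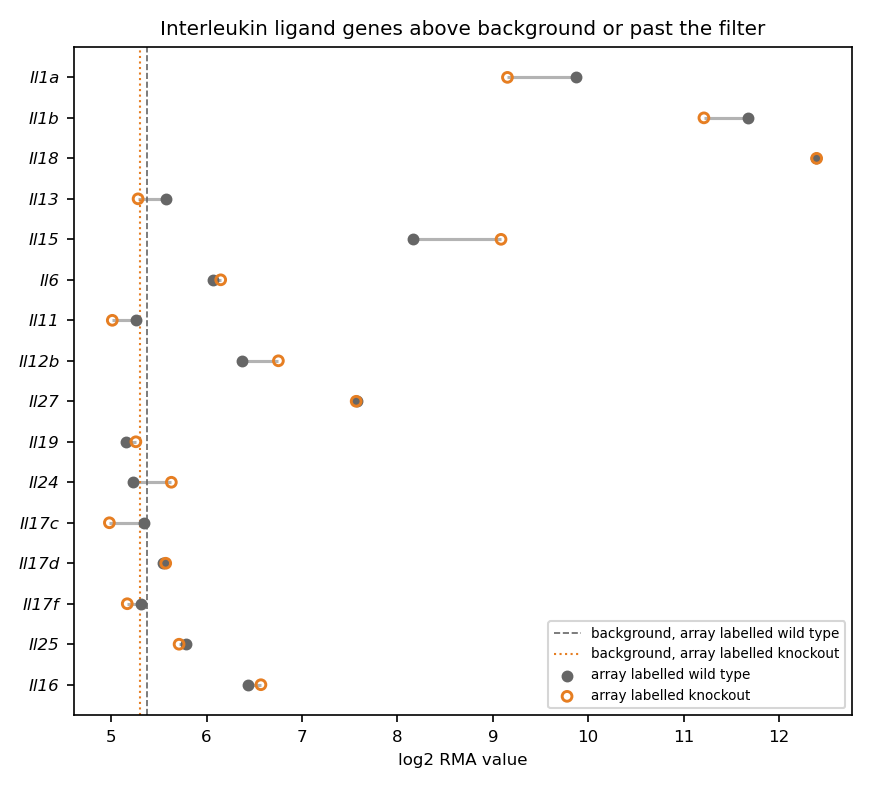
Log2 RMA values of the 16 ligand genes that passed the filter, grouped by family, with a filled point for the array labelled wild type and an open point for the array labelled knockout. Vertical lines are the background levels of the arrays, and Il15 is the ligand whose open point lies farthest to the right of its filled point, at 9.09 against 8.16.

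The chains of the IL-10 receptor differed in opposite directions. Il10ra, the ligand-binding chain that gives a cell its response to IL-10, read 6.23 on the array labelled wild type and 5.33 on the array labelled knockout. It was 1.87-fold lower, a difference of -0.91 where the local spread was 0.26, and 67 of the 12516 genes had a larger negative difference. The value of 5.33 lies just above the background level of 5.31, so the lower reading was at the edge of detection. Il10rb, the second chain, shared with the receptors of IL-22 and interferon lambda, read 7.98 and 8.59 and was 1.53-fold higher, a difference of 0.61 where the local spread was 0.33. Relative to each other the chains differed by -1.52, or 2.86-fold. Il10rb lies just past the 1.5-fold limit, and it was inside it with quantile normalisation, loess centring or an added offset. Il10ra also came inside the limit with the offset, which shrinks differences at low signal, at -0.57.

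The ligand itself was not seen. Il10 read 3.44 and 3.31, near the middle of the sensory receptor genes, 51.9% of which lay below it on the array labelled wild type and 47.5% on the array labelled knockout. Of the other IL-10 family ligands, Il24 read 5.23 and 5.63, above background only on the array labelled knockout and at least 1.20-fold higher, and Il19 read 5.16 and 5.26. Il20 and Il22 lay between 1.38 and 4.14. Il20rb, a chain of the receptor of IL-20 and IL-24, read 5.67 and 5.93, while its partners Il20ra and Il22ra1 were below background on both arrays, as was Il22ra2, which encodes a soluble binding protein of IL-22.

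Of the kinases and factors that act below the IL-10 receptor, Jak1 read 7.50 and 7.16, Tyk2 was below background at 4.70 and 4.83, and Stat3, the factor activated by IL-10 and IL-6, read 7.83 and 7.47. Socs3, an inhibitor induced through STAT3, read 7.20 and 6.47 as the mean of 2 rows, a difference of -0.73; its brighter row alone differed by -1.28. Socs1, another inhibitor of cytokine signalling, read 6.43 and 5.65, a difference of -0.78 that came inside the 1.5-fold limit, at -0.53, with an added offset of 32. Zfp36, which encodes the mRNA decay factor tristetraprolin, read 10.60 and 9.68, 1.89-fold lower; it also stands in the immediate early list.

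The wider signalling list of kinases, STAT factors, MyD88 and IRAK adaptors, SOCS inhibitors and NF-kB genes had a median difference of -0.19 over the 50 of 56 measured that passed the filter. Of these 39 were lower and 11 higher, beside 49.6% of all genes lower. At least 1.5-fold apart were Socs1, Socs3 and Zfp36, all lower, and Tab1, which encodes an activator of the kinase TAK1. Tab1 read 5.27 and 5.92, below background on the array labelled wild type and at least 1.46-fold higher, so measured from background it is inside the limit and the list holds the 3 lower genes alone. The 4 of 50 that far apart compare with 7.11% of all genes, so the count was near the background while the direction of the list was mostly down. Among genes just inside the limit, the NF-kB inhibitor gene Nfkbia read 10.98 and 10.42 and Nfkbiz, which encodes a nuclear IkB protein, read 6.81 and 6.24. Myd88, the adaptor of the IL-1 receptor, read 8.07 and 7.70 and the kinase gene Irak1 6.45 and 6.04. Irak3, which encodes an inhibitory kinase of that pathway, read higher, at 6.86 and 7.18.

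**Figure D3:**
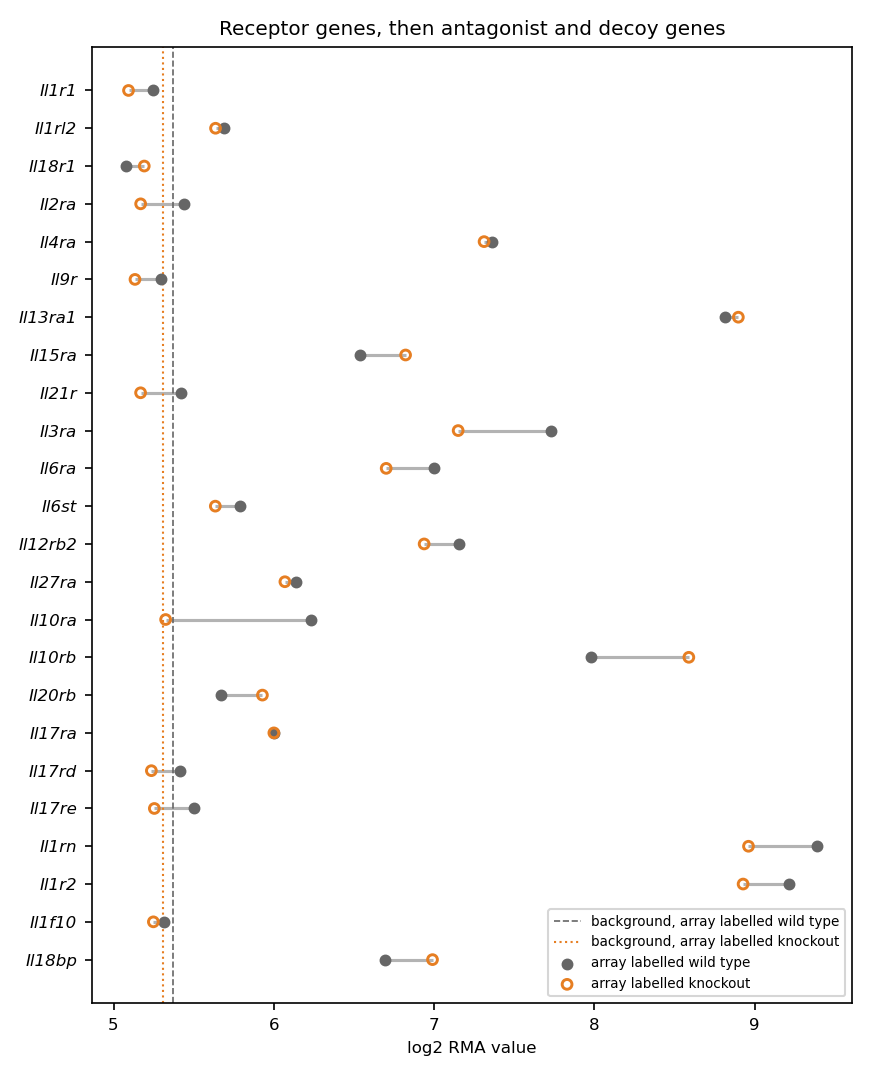
Log2 RMA values of the 20 receptor genes and, in the lowest 4 rows, the 4 antagonist and decoy genes that passed the filter, with a filled point for the array labelled wild type and an open point for the array labelled knockout. Il10ra reaches the background line on the array labelled knockout (5.33), Il10rb lies to the right (8.59 against 7.98), and the points of Il17ra coincide.

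The 20 receptor genes that passed the filter had a median difference of -0.15, with 14 lower, 5 higher and 1 equal, beside 49.6% of all genes lower. All genes of like level had a median of -0.04. Among the 16 ligand genes 8 were higher and 8 lower around a median of 0.00, and the 4 antagonist genes had a median of -0.18 with 3 lower. Above background on at least 1 array were 12 of 36 ligand genes and 17 of 32 receptor genes, beside 53.5% of all genes. Of the 32 interleukin genes above background somewhere, 26 were so on both arrays, 5 only on the array labelled wild type and 1 only on the array labelled knockout.

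In the IL-6 and IL-12 family, all 3 components needed for an IL-6 response were above background and less than 1.3-fold apart between the arrays. Il6 read 6.06 and 6.15, Il6ra, the ligand-binding chain, 6.998 and 6.70, and Il6st, which encodes the shared chain gp130, 5.79 and 5.64. Il12b, which encodes the p40 subunit common to IL-12 and IL-23, read 6.37 and 6.75, a difference of 0.38. Its partner subunits were below background, Il12a at 4.82 and 4.93 and Il23a at 4.95 and 5.18. Il27, which encodes the p28 subunit of IL-27, read 7.57 on both arrays, and its partner gene Ebi3 read 6.70 and 6.64. The IL-27 receptor gene Il27ra read 6.14 and 6.07, and Il12rb2, a chain of the IL-12 receptor, 7.15 and 6.94, while its partner Il12rb1 read 4.89 and 5.07, below background. All 4 receptor genes of this family that passed the filter were thus lower, by 0.07 to 0.30, where the local spreads were 0.26 to 0.28. Il31 and Il23r were below background on both arrays, and Il11 read 5.26 and 5.01; Il31ra was below it too, at 5.07 and 4.51.

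Other ligands of that family carry symbols of their own. They were listed with companion genes of other families, among them Csf2ra, Csf1r, Crlf2, Ifnl2, Ifnl3 and Cd4. In this mixed list of 22 measured genes, 13 of the 14 that passed the filter were lower. The median of the 14 was -0.22, and 49.6% of all genes were lower. In this list 1 of 14 was at least 1.5-fold apart, a share close to the 7.11% of all genes. That gene was Osm, which encodes oncostatin M, at 8.84 and 8.07, 1.71-fold lower. Clcf1 read 6.37 and 5.83 and Lif, which encodes leukemia inhibitory factor, 6.01 and 5.64. Sigirr, an inhibitory receptor of the IL-1 family, was the 1 higher gene, at 5.47 and 5.65.

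Il3ra, the ligand-binding chain of the IL-3 receptor, was the gene nearest to the 1.5-fold limit from inside, at 7.73 and 7.15, 1.49-fold lower. The signalling chain it shares with the receptors of IL-5 and GM-CSF, Csf2rb, read 6.94 and 6.48, also lower; its near copy Csf2rb2 may share probes with it and read 5.10 and 4.47, below background. Csf2ra, the alpha chain of the GM-CSF receptor that alveolar macrophages depend on, read 8.59 and 8.35. Both Il3 and Il5 were below background, as was Il5ra, the IL-5 receptor gene of eosinophils, at 3.93 and 4.19. Eosinophils carry Siglec-F, used in the sort, and of 16 eosinophil, mast cell and basophil markers 2 were above background on the array labelled wild type and 5 on the array labelled knockout. The eosinophil granule genes Prg2 and Epx read 4.71 and 5.76 and then 4.95 and 5.33, and the basophil gene Mcpt8 4.55 and 5.67, all above background only on the array labelled knockout. Measured from background Prg2 was at least 1.31-fold and Mcpt8 at least 1.23-fold higher. Epx did not differ by this measure, because its 5.33 lies under the background level of the array labelled wild type, 5.37. Of the 4 genes of this list that passed the filter, 2 were higher and 2 lower. The lower genes were the 2 above background on both arrays, namely Kit, at 5.57 and 5.36, and Hdc. Hdc, which encodes the enzyme that makes histamine, read 6.13 and 5.48, 1.57-fold lower, and the eosinophil receptor gene Ccr3 read 2.90 and 3.61, below background.

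In the IL-17 family, the ligand genes Il17a and Il17b were below background, Il17c and Il17f passed the filter without exceeding background, and Il17d and Il25 read 5.54 and 5.57 and then 5.79 and 5.71. Il17ra, which encodes the common receptor chain, was listed at the same value on both arrays, 6.00026, to all decimals deposited; so were 1022 rows, 2.47% of the table. Its partner chain gene Il17rc read 5.09 and 4.92, below background. Il17rd and Il17re were above background only on the array labelled wild type, at 5.42 and 5.50, and at least 1.08-fold and 1.14-fold lower.

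Outside these families, Il16, which encodes a chemoattractant that binds CD4, read 6.43 and 6.57, and Il34, which encodes a ligand of the CSF1 receptor, read 4.98 and 5.20, below background. In all, 38 of the 78 genes, with rows of a gene averaged, neither passed the filter nor exceeded background on an array, with values from 1.38 to 5.22; they were 20 ligand, 12 receptor and 3 antagonist genes and the 3 other symbols. Il1rap is among them by the mean of its rows, although its brightest row exceeded background. Of these, 1 was 1.5-fold apart: Il1rapl1, a neuronal relative of the IL-1 accessory chain, at 3.98 and 2.88, for which no fold is given because both values lie in background. Its relative Il1rapl2 read 3.44 and 3.05, and Il1bos, a noncoding RNA that overlaps the region of Il1b, 4.88 and 4.36. The genes of the common gamma chain (Il2rg), the IL-33 receptor (Il1rl1) and the IL-11 receptor (Il11ra1) are not analysed here.

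**Figure D4:**
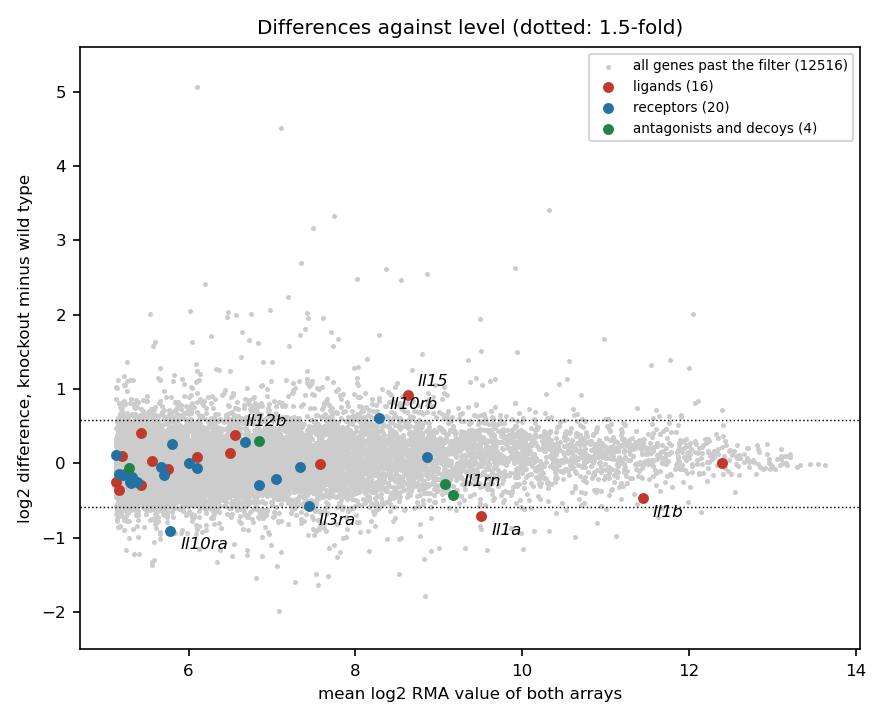
Log2 difference, knockout minus wild type, against the mean log2 RMA value of both arrays for the 12516 genes that passed the filter (grey) and for 40 interleukin genes (ligands, receptors, antagonists in colour). Dotted lines mark 1.5-fold, and 4 of the 40 lie beyond them.

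**Figure D5:**
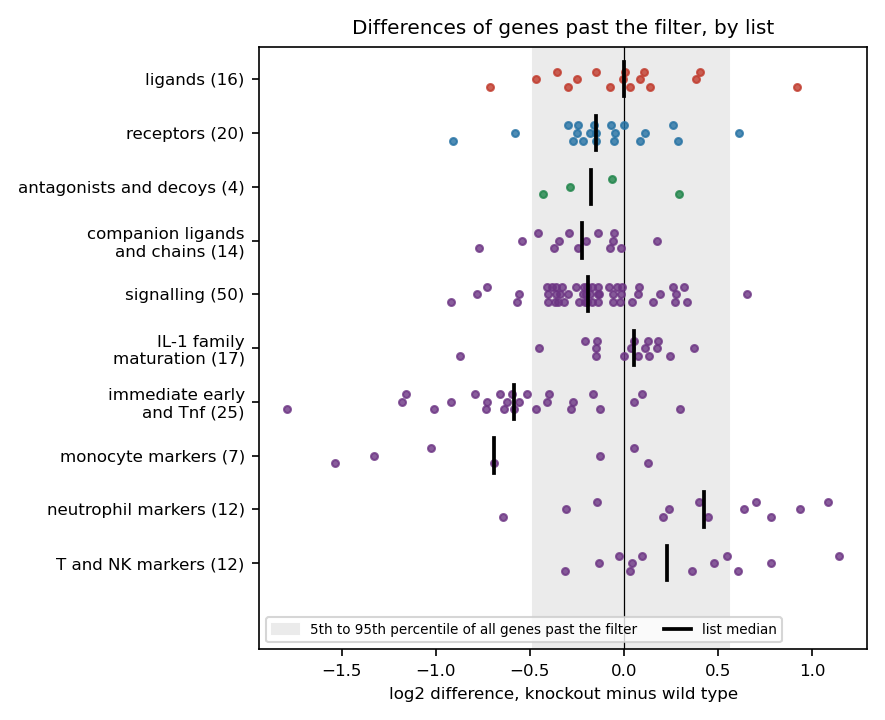
Log2 differences, knockout minus wild type, of each gene that passed the filter, by list, with a black bar at the list median and grey shading from the 5th to the 95th percentile of all genes (-0.48 to 0.56). The ligand median is at 0.00 and the receptor median at -0.15, while the immediate early and monocyte lists lie at -0.59 and -0.69 and the neutrophil list at 0.42.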

How the data were processed

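The deposited table holds log2 values of 41345 rows on 2 arrays, processed by the authors with RMA per the submitters' processing notes; log base 2 follows from RMA and from the range of the values, 0.77 to 13.86. The sources used here name no RMA version, annotation release or genome build. Per the labels' protocols, cDNA was amplified from 10 ng of total RNA. Amplification and RMA can compress folds, and 1 array per genotype limits the precision.

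Rows were named through the platform's gene annotation (23521 rows with 1 symbol, 1814 with several, 16010 with none), and all 80 interleukin rows matched RefSeq (GRCm38.p6) by Entrez identifier. Rows of a gene were averaged. Every interleukin gene past the filter or above background was named. Of the companion, signalling and maturation lists, genes past the filter and at least 1.5-fold apart were named, with chains or kinases shared with a named gene. In the immediate early and cell type marker lists, some genes that far apart were named and others only counted. Further list genes were chosen after their values were seen. Members and lists were chosen with earlier results of these data known. Local spreads were computed in 20 bins of mean level, as the median absolute deviation scaled by 1.4826. Python 3.11.15 with pandas 2.3.3 and statsmodels 0.14.6 was used. A run on simulated data checked the counting code only, because its planted shifts lay past the limit and its scatter below it.

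The alternatives were no filter, a filter at the 75th percentile or at background, equal array medians, quantile normalisation, loess centring (span 0.3), an offset of 32, the highest row per gene, and folds of 2 and 1.3. Folds measured from background were added after seeing the data.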

Additional observations from a re-analysis of the deposited data

How the results depend on the processing

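No alternative reversed the direction of a gene at least 1.5-fold apart. Over the 5 alternatives in scaling, offset and choice of row, Il15 ranged from 0.85 to 0.99, Il1a from -0.79 to -0.65, Il10rb from 0.55 to 0.68 and Il10ra from -0.91 to -0.57. Of the 40 named interleukin genes 5 changed sign (Il18, Il27, Il1rl2, Il4ra and Il1f10), each with a difference near 0.

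With no filter, 2 companion genes were lower, 1 maturation gene higher and 2 lower, and the antagonist median was -0.067. A filter at the 75th percentile left 0 receptors lower, 0 signalling genes higher and a receptor median of -0.050; that of antagonists was -0.29 there and when the filter was set at background. Quantile normalisation, loess centring and the offset of 32 each left 0 receptors higher. With no filter the receptor median was -0.0622. It lay between -0.0911 and -0.0835 with equal array medians, quantile normalisation, loess centring or the offset, beside -0.15 in the main setting. The offset also left 0 receptors lower, 0 signalling genes higher and 8 genes of the immediate early list lower. With equal array medians 9 genes of that list were lower, beside 13 in the main setting. The medians as deposited were 5.17 on the array labelled wild type and 5.10 on the array labelled knockout. At 2-fold, 0 ligands, 0 receptors and 0 signalling genes were higher or lower, and 0 companion and 0 maturation genes were lower. In the immediate early list 4 genes were that much lower, Egr2, Ier2, Hspa1a and Tnf. At 1.3-fold, 3 ligands were higher and 2 lower, 2 receptors and 1 antagonist lower, 3 companion, 9 signalling and 2 maturation genes lower. The cause was not tested, beyond the fewer genes or other limits that these settings set by construction.

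Folds measured from background gave 1 ligand and 1 receptor in each direction, as did values as read. Il15, Il10rb, Il1a and Il10ra were above background on both arrays, where this measure leaves a difference unchanged. Their counts therefore could not fall, and this setting does not test them. Leaving out a replicate was not possible with 1 array per genotype. No paired analysis was possible because each genotype has 1 array. Signal over background limits the 38 genes that neither passed the filter nor exceeded background on an array, rows averaged; the brightest row of Il1rap did exceed it.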

Other observations

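A row shared by Nup62, Il4i1 and Il4i1b was left out because it names several genes. Il4i1 encodes an amino acid oxidase induced by IL-4. The row read 6.13 on the array labelled wild type and 6.08 on the array labelled knockout.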
